A study of Mus musculus with 20 samples.

Results

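The 39 protein-coding genes of the mouse Hox clusters, out of 49585 genes in the count table, were followed in 18 primary bone tumours, all osteosarcomas, and in the 2 libraries of line 14, cells grown from such a tumour. Members were chosen by name alone, as the genes called Hox followed by a cluster letter from a to d and a paralogue number from 1 to 13. HoxA holds 11 of them on chromosome 6, HoxB 10 on chromosome 11, HoxC 9 on chromosome 15 and HoxD 9 on chromosome 2, in GENCODE M21 coordinates on GRCm38. Osteosarcoma is a malignant tumour of bone-forming cells.

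Hox genes encode homeodomain transcription factors that give cells their position along the body axis and along the limbs. Within a cluster, genes of low paralogue number are expressed from the hindbrain backwards, and genes of high number, the posterior ones, only further towards the tail and, in HoxA and HoxD, towards the tip of the limb. Adult connective and skeletal tissues keep much of this positional pattern, so that the last Hox gene in use is often read as a mark of the body site a cell came from, while most of the facial skeleton forms from Hox-negative cells.

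The strain was a C57BL/6J and 129S/SvJae mix, and the mice carried 1 wild-type Trp53 allele with a missense allele, p53R172H/+ (n = 6), p53R245W/+ (n = 3) or p53R270H/+ (n = 5), or with a lost allele, p53+/- (n = 4). They are called R172H, R245W, R270H and p53 het here. The cell line, number 14, is labelled p53R245/O with loss of heterozygosity; 1 library had p53 siRNA and 1 was its control, and the letter of its mutant amino acid is not in the label. The labels give neither the bone, the sex and age of the mice, nor the state of the wild-type allele in each tumour, so no Hox pattern below can be set against a recorded site. In bulk RNA, fewer cells of a type and less RNA per cell cannot be told apart.

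Sequencing depth was 20.1 to 29.2 M counts per tumour library, and in line 14 it was 73.4 M with siRNA and 64.1 M in the control, where M is the usual prefix mega. Levels are CPM, a gene's counts divided by that depth in M, and a count of 3, taken as the floor, was 0.103 to 0.149 CPM in the tumours; floors and intervals cover counting error only. A gene is called read at 1 CPM or more. Trp53 was 36.3 to 71.3 CPM in R172H, 57.5 to 74.0 CPM in R245W, 26.5 to 53.2 CPM in R270H and 13.5 to 27 CPM in p53 het. The 10 osteoblast markers summed to 33893 CPM or more in every tumour, and the bone sialoprotein gene Ibsp was at 1308 CPM or more. In line 14 the 10 markers summed to 9208 CPM with siRNA and 8143 CPM in the control, lower than in every tumour. Ibsp, 1 of them, was at 0.354 CPM with siRNA and 0.140 CPM in the control there, so it does not stand for the list. Tumours p53 het 3 and R270H 3 stood apart in the Hox genes: they read 10 and 16 members, where the other 16 tumours read 20 to 30. The summed levels, the spread and the folds over all members are given with and without them.

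A tumour read a median of 24.5 of the 39 members. Read in all 18 tumours were 6 members, all of low number: Hoxa2, Hoxa3, Hoxa5, Hoxb2, Hoxb3 and Hoxb4. Read in none were Hoxb1, Hoxd1, Hoxd3, Hoxd10, Hoxd11 and Hoxd12, with highest values of 0.448, 0.308, 0.695, 0.775, 0.291 and 0.0431 CPM. The other 27 were read in some tumours and not in others. Per kilobase of exon, which allows levels of different genes to be set side by side, Hoxa10 had the highest median over the tumours at 5.53 CPM per kb, followed by Hoxa5 at 3.78, Hoxa9 at 3.56, Hoxa6 at 3.55, Hoxa7 at 3.28, Hoxc10 at 3.18, Hoxb4 at 3.14 and Hoxc6 at 2.92 CPM per kb. The ranges over the tumours of these genes overlapped, so the order of neighbours is no more than the order of the medians.

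**Figure D1:**
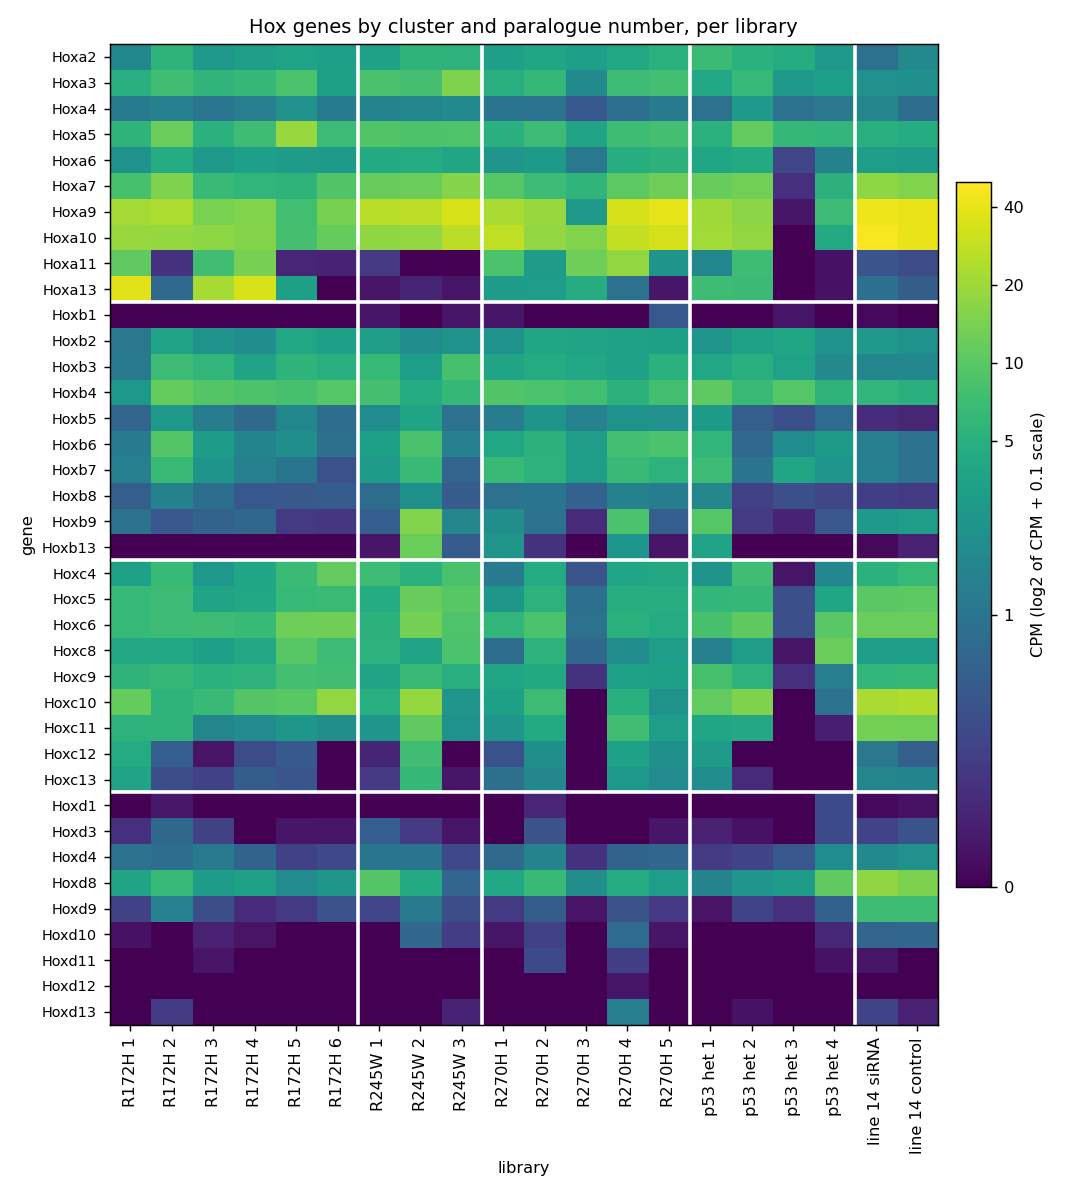
Level of Hox genes (rows, by cluster and from low to high paralogue number) in each library (columns, by group), as colour on a log2 scale of CPM plus 0.1. Rows such as Hoxb4 are coloured in every tumour, the lower rows of each cluster are coloured in some, and the HoxC block is dark in R270H 3 and p53 het 3.

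HoxA carried the largest summed level of the 4 clusters in all libraries but R172H 6 and p53 het 3, with a median of 89.2 CPM per tumour, and was read up to different points. Its last gene read was Hoxa13, a gene needed for the hand and foot and for the hindgut and urogenital end, in 9 tumours, Hoxa11, known for the forearm and lower leg, in 2, Hoxa10 in 6 and Hoxa5 in 1. In 17 of 18 tumours the cluster therefore stopped at Hoxa10, Hoxa11 or Hoxa13. The 250 bases before the start of these 3 genes are shown because the last gene read differed between tumours at these genes. They are from RefSeq on GRCm38.p6, chromosome 6, minus strand, 5′ to 3′, at chr6:52240855-52241104, chr6:52245811-52246060 and chr6:52260881-52261130. Capitals mark the letters TTTAT, a core that caudal and posterior Hox proteins bind, and GGGCGG, the GC box, on either strand.
Hoxa10: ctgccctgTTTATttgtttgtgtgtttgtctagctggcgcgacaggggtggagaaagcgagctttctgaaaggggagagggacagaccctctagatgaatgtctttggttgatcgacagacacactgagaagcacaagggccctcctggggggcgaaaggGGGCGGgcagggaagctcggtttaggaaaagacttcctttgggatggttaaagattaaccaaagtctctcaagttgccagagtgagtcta
Hoxa11: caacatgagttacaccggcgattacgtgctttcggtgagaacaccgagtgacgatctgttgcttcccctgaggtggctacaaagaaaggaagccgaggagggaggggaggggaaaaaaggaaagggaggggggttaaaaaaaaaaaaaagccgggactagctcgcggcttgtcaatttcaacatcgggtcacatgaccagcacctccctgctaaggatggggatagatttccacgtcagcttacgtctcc
Hoxa13: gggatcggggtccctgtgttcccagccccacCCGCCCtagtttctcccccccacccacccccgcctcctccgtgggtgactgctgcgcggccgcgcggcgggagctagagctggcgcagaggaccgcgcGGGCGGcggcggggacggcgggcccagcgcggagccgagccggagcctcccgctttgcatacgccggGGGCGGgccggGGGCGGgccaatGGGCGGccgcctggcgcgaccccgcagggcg
TTTAT was found 1 time before Hoxa10 and GGGCGG 1 time there and 5 times before Hoxa13. Neither was found before Hoxa11, and TGATTNAT, a joint site of Hox and Pbx proteins, was before none of the 3. Of 32851 promoter windows of this length, 37.3% held TTTAT, 32.7% GGGCGG and 2.82% TGATTNAT on either strand, and of the 24 Hox windows (22 members have one) 37.5%, 41.7% and 8.33% did. The Hoxa13 window was rich in CpG, with 35 CpG pairs and 80% G and C, against a median of 6 CpG pairs and 52.4% over all windows, while Hoxa11 had 13 and Hoxa10 had 7 CpG pairs. A match of letters is a description of the window and was not set against binding.

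Hoxa9, which is used in posterior trunk, limb and blood-forming cells, was at 7.48 to 22.9 CPM in R172H with a median of 14.8, at 25.6, 26.8 and 33.8 CPM in R245W, at 22.8, 19.1, 2.73, 33.5 and 39.6 CPM in R270H, and at 20.6, 17.0, 0.0439 and 7.02 CPM in p53 het. It was low in p53 het 3 and R270H 3, and the R245W tumours lay above all R172H and all p53 het tumours.
Hoxa10, its neighbour, was at 7.86 to 18.8 CPM in R172H with a median of 16.6, at 17.7, 18.1 and 25.9 CPM in R245W, at 27.6, 18.4, 15.3, 28 and 33.7 CPM in R270H, and at 21.1, 18.1, 0 and 4.31 CPM in p53 het. It had no count in p53 het 3, and in R270H 3 it was within the range of R172H.

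Hoxa11 was high in some tumours and near 0 in others within R172H and within p53 het. It was at 10.8, 0.149, 7.41, 13.9, 0.0930 and 0.0843 CPM in R172H 1 to 6, at 0.178, 0 and 0 CPM in R245W, at 8.60, 2.91, 12.7, 18 and 2.37 CPM in R270H, and at 1.74, 7.14, 0 and 0.0342 CPM in p53 het. All 3 R245W tumours lay at or near the floor and all 5 R270H tumours above 2 CPM.
Hoxa13 was at 37.4, 0.745, 22, 33.9, 3.30 and 0 CPM in R172H 1 to 6, at 0.0446, 0.0911 and 0.0417 CPM in R245W, at 3.03, 3.15, 4.63, 0.948 and 0.0448 CPM in R270H, and at 7.14, 6.81, 0 and 0.0342 CPM in p53 het. R172H 1, 3 and 4 were the 3 highest tumours of the series, while R172H 6 had no count. Both genes were read in 8 tumours and neither in 7; Hoxa11 alone was read in 2 and Hoxa13 alone in 1.

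The low-numbered HoxA genes varied less. Hoxa3, known for the neck skeleton and thymus, was at 3.29 to 8.60 CPM in R172H with a median of 5.96, at 8.38, 7.92 and 15.1 CPM in R245W, at 4.96, 6.20, 1.83, 7.06 and 7.79 CPM in R270H, and at 4.10, 6.40, 2.81 and 3.22 CPM in p53 het. R245W lay above R270H and p53 het without overlap.
Hoxa4, a gene of the neck vertebrae, was at 1.05 to 2.23 CPM in R172H with a median of 1.25, at 1.52, 1.64 and 1.79 CPM in R245W, at 0.993, 0.969, 0.448, 0.861 and 1.21 CPM in R270H, and at 0.907, 2.72, 0.922 and 1.1 CPM in p53 het. It was near the 1 CPM mark in most tumours. Hoxa7, a trunk gene, ran from 5.62 to 14.8 CPM in R172H with a median of 7.37, was 11.7, 12.2 and 15.8 CPM in R245W, 9.83, 7.02, 5.72, 10.4 and 12.9 CPM in R270H, and 11.6, 13.2, 0.132 and 5.34 CPM in p53 het, where p53 het 3 stood alone. The GENCODE model of Hoxa3 spans Hoxa4 to Hoxa6, so reads there can be shared.

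HoxB held 3 of the 6 members read in every tumour, with a median sum of 24.6 CPM per tumour, and its 2 posterior genes appeared in few tumours. Its last gene read was Hoxb4 in 2 tumours, Hoxb7 in 8, Hoxb8 in 3, Hoxb9 in 1 and Hoxb13 in 4. Hoxb4, also known from blood stem cells, was at 2.64 to 11.3 CPM in R172H with a median of 9.03, at 7.93, 4.64 and 6.14 CPM in R245W, at 9.22, 8.47, 7.51, 5.38 and 7.57 CPM in R270H, and at 10.7, 6.62, 9.57 and 5.58 CPM in p53 het. The groups overlapped throughout, and p53 het 3 and R270H 3 were not low.

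Hoxb13, the last gene of the cluster and a gene of tail tip, prostate and hindgut, had no count in any of the 6 R172H tumours. It was at 0.0446, 12.4 and 0.501 CPM in R245W, at 2.46, 0.145, 0, 2.54 and 0.0448 CPM in R270H, and at 3.47, 0, 0 and 0 CPM in p53 het. It was read in R245W 2, R270H 1, R270H 4 and p53 het 1, and all 4 of these also read Hoxb9. Hoxb9, a gene of the rib-bearing trunk, was at 0.169 to 0.939 CPM in R172H with a median of 0.534, at 0.535, 15.3 and 1.67 CPM in R245W, at 2.03, 0.920, 0.112, 8.44 and 0.537 CPM in R270H, and at 9.62, 0.184, 0.0878 and 0.445 CPM in p53 het. R245W 2, p53 het 1 and R270H 4 were the 3 highest for it.
Hoxb7, a trunk gene, was at 0.379 to 6.65 CPM in R172H with a median of 1.40, at 2.94, 6.69 and 0.668 CPM in R245W, at 6.52, 5.52, 3.18, 6.42 and 5.42 CPM in R270H, and at 6.90, 0.994, 3.86 and 2.53 CPM in p53 het. In R270H it was above 3 CPM in all 5 tumours, a range that the other groups overlapped.

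HoxC was read as far as Hoxc13 in 6 tumours, to Hoxc11 in 9, to Hoxc9 in 1 and not at all in p53 het 3 and R270H 3. Hoxc10, a gene of lumbar vertebrae and hindlimb, was at 5.56 to 18.2 CPM in R172H with a median of 9.72, at 4.81, 18.5 and 2.46 CPM in R245W, at 3.36, 7.07, 0, 5.08 and 2.28 CPM in R270H, and at 11, 14.9, 0 and 0.924 CPM in p53 het. Hoxc10 and Hoxc11, which lie side by side, were both read in 15 tumours and neither in the other 3.
Hoxc11 was at 1.63 to 5.66 CPM in R172H with a median of 2.31, at 2.50, 10.8 and 2.25 CPM in R245W, at 2.46, 4.41, 0, 7.41 and 3.05 CPM in R270H, and at 3.90, 4.16, 0 and 0.0685 CPM in p53 het. R245W 2 was the highest tumour for both genes, and p53 het 3 and R270H 3 had no count of either.

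Hoxc13, a gene of hair, nail and tail, was at 3.69, 0.348, 0.233, 0.519, 0.418 and 0 CPM in R172H 1 to 6, at 0.178, 6.10 and 0.0417 CPM in R245W, at 0.898, 1.69, 0, 2.67 and 1.88 CPM in R270H, and at 2.01, 0.110, 0 and 0 CPM in p53 het. It was read in the same 6 tumours as its neighbour Hoxc12, which are R172H 1, R245W 2, R270H 2, R270H 4, R270H 5 and p53 het 1.
Hoxc6, a gene of the thorax and forelimb level, was at 6.26 to 12.8 CPM in R172H with a median of 7.03, at 5.26, 13.5 and 8.89 CPM in R245W, at 5.81, 8.57, 0.934, 5.21 and 4.52 CPM in R270H, and at 8.16, 10.7, 0.351 and 10.2 CPM in p53 het. The 2 tumours in which no HoxC gene reached 1 CPM, p53 het 3 and R270H 3, were the lowest of their groups for Hoxc6. Hoxc5, whose gene model spans Hoxc6 to Hoxc9 in GENCODE, was at 3.65 to 7.05 CPM in R172H with a median of 6.37, at 4.59, 11.6 and 9.85 CPM in R245W, at 2.6, 5.42, 0.860, 4.65 and 4.75 CPM in R270H, and at 6.03, 6.22, 0.351 and 3.73 CPM in p53 het. It was lowest in p53 het 3 and R270H 3 too.

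HoxD was the quietest cluster, with a median sum of 4.54 CPM per tumour, 5 of its 9 genes read in none and Hoxd8 as its last gene read in 14 tumours. Hoxd8, a trunk gene, was at 1.91 to 6.26 CPM in R172H with a median of 3.23, at 9.49, 4.37 and 0.668 CPM in R245W, at 4.02, 6.54, 2.06, 4.61 and 3.18 CPM in R270H, and at 1.5, 2.43, 3.03 and 10.7 CPM in p53 het. The highest and the lowest tumours were p53 het 4 and R245W 3.
Hoxd13, a gene of the digits and the end of the gut, was read in 1 tumour, R270H 4, at 1.34 CPM, and was at 0.199 CPM or less in R172H, 0.0835 CPM or less in R245W, 0 in the other 4 R270H tumours and 0.0368 CPM or less in p53 het. That same tumour read Hoxb13 and Hoxc13 and had the highest Hoxa11.

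**Figure D2:**
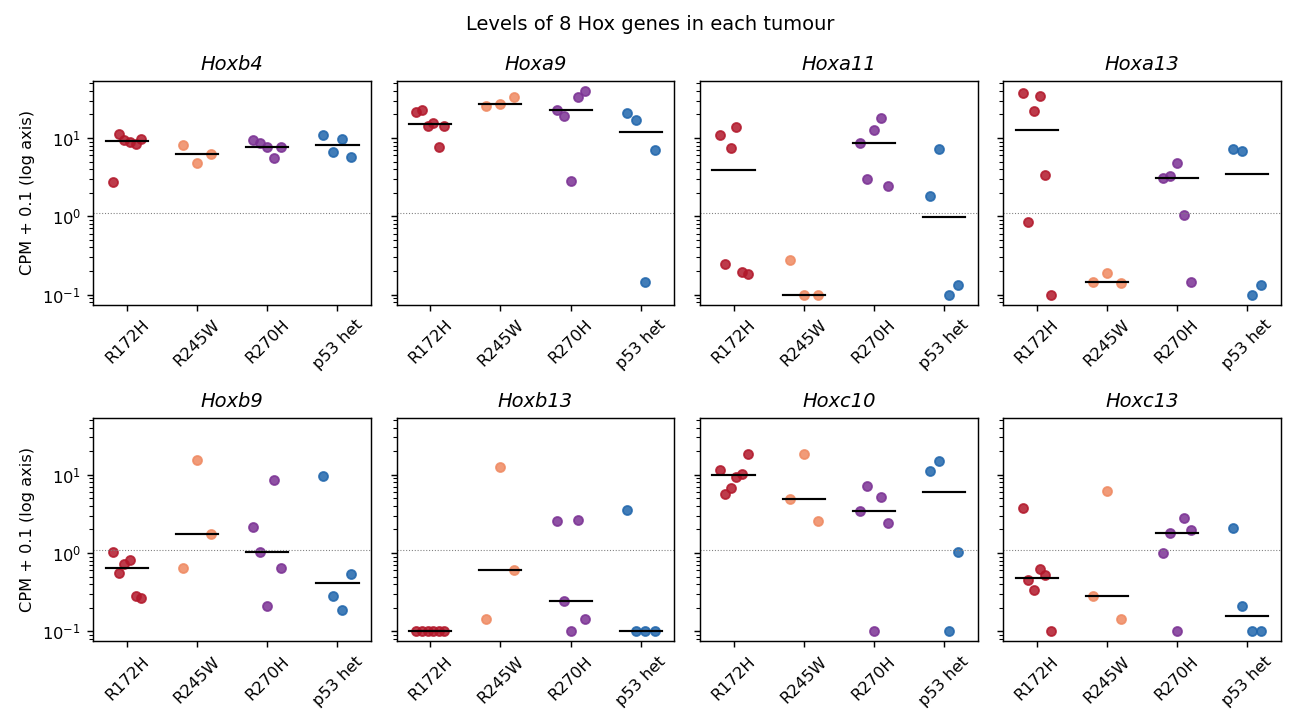
CPM plus 0.1 (log axis) of 8 Hox genes in each tumour (points) by genotype, with the group median as a black line and 1 CPM as a dotted line. Hoxb4 sits above the dotted line in all tumours, while Hoxa11, Hoxa13, Hoxb13 and Hoxc13 have points on both sides of it within genotypes.

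In single tumours the Hox genes summed to a median of 163 CPM, with a range from 46.2 CPM in p53 het 3 to 240 CPM in R245W 2. The members of paralogue number 9 to 13 made up 27.4 to 67.2% of that sum in R172H with a median of 44.3%, 35.0, 51.6 and 39.1% in R245W, 51.6, 41.3, 43.9, 57.2 and 47.7% in R270H, and 50.4, 42.9, 0.855 and 15.8% in p53 het. Weighted by exon length the shares were 26 to 65.8% in R172H, 27 to 49.9% in R245W, 37.0 to 51.2% in R270H and 0.796 to 45.7% in p53 het. The groups overlapped, and p53 het held the 2 lowest tumours. Without R270H 3 and p53 het 3 the shares by CPM were 41.3 to 57.2% in R270H and 15.8 to 50.4% in p53 het, and the summed level of a tumour was 94.3 to 240 CPM with a median of 170.1 CPM.

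Single tumours showed distinct sets. R172H 1, 3 and 4 had the highest Hoxa13 and no Hoxb13. R245W 2 read 30 members, the most of any tumour, with Hoxb9, Hoxb13, Hoxc12 and Hoxc13 at their highest of the series and HoxA stopping at Hoxa10. R270H 3 read Hoxa11 at 12.7 CPM and Hoxa13 at 4.63 CPM but had a HoxC sum of 3.06 CPM, and p53 het 3 stopped at Hoxa5 in HoxA with a HoxC sum of 0.922 CPM while HoxB, at 23.6 CPM, was near the median of the tumours. p53 het 4 read Hoxc8 at 11.9 CPM, the highest of the series, and Hoxc10 at 0.924 CPM. The last gene read therefore differed between clusters of 1 tumour, so that Hoxa13 was read with Hoxc13 in 3 tumours, without it in 6, and Hoxc13 without Hoxa13 in 3.

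**Figure D3:**
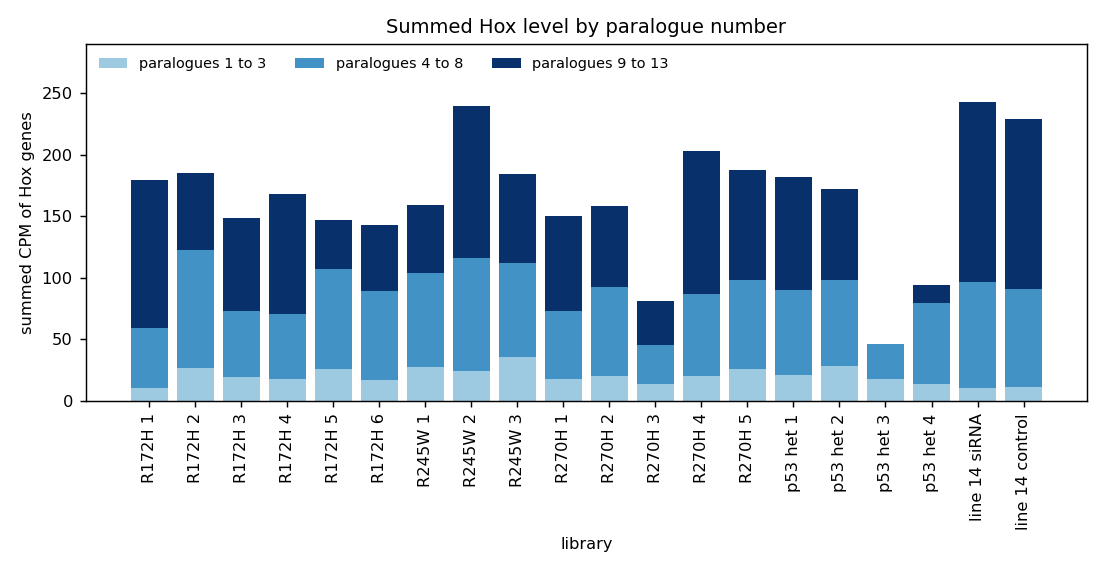
Summed CPM of the Hox genes in each library, stacked by paralogue number (1 to 3, 4 to 8 and 9 to 13). The dark part, paralogues 9 to 13, is 0.855% of the bar in p53 het 3 and 67.2% in R172H 1.

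The median spread between tumours of a genotype was larger for the groups of higher paralogue number. It is given as the biological coefficient of variation, the part of the relative spread between replicates that edgeR finds beyond counting error. For the 5 members of number 1 to 3 in the fit its median was 0.403, for the 15 of number 4 to 8 it was 0.611, and for the 12 of number 9 to 13 it was 1.16, against 0.369 for all 20616 genes. Hoxb13 at 2.01, Hoxc12 at 1.96, Hoxc13 at 1.58, Hoxa11 at 1.48 and Hoxa13 at 1.48 were the most variable, and Hoxa2, Hoxb2 and Hoxb4 at 0.368 to 0.370 the least. With p53 het 3 and R270H 3 left out, the medians were 0.393, 0.556 and 0.923, against 0.368 for all genes. The values of Hoxa9, Hoxa10 and Hoxc9 rested on these 2 tumours: with them they were 0.808, 0.786 and 0.762, and without them 0.392, 0.422 and 0.433. Without them Hoxb13 was at 1.74, Hoxc12 at 1.74, Hoxa11 at 1.39, Hoxc13 at 1.37 and Hoxa13 at 1.36. These 5 had counts near the floor in many tumours, and the part of low counts in the spread was not tested.

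**Figure D4:**
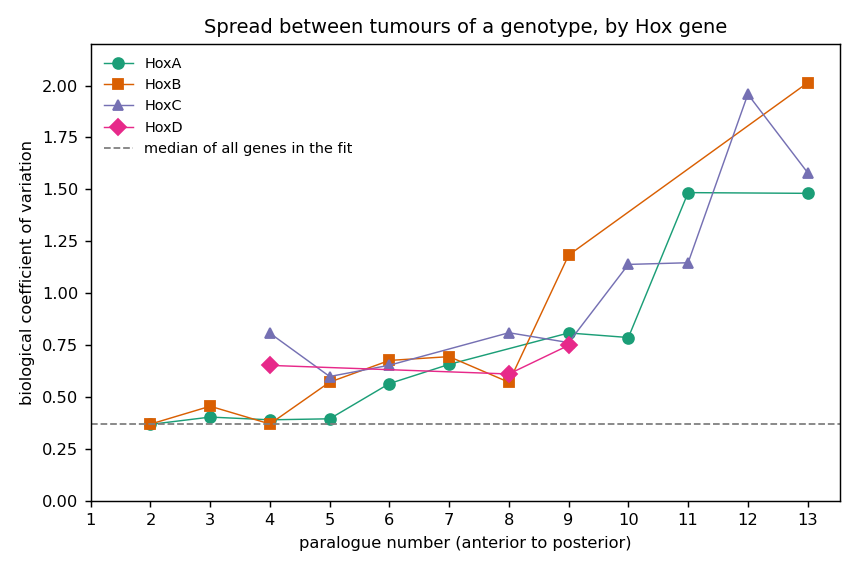
Biological coefficient of variation between tumours of a genotype for Hox genes in the fit, by paralogue number and cluster, with the median of all genes as a dashed line. Hoxa2, Hoxb2 and Hoxb4 lie at the line, and Hoxb13, at 2.01, is the highest point.

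The design sets each missense allele against the lost allele and the 3 missense alleles against each other, to ask which genes differ between tumours that make a mutant p53 and those that have lost an allele. Of the 39 members, 32 had counts enough for the fit, and Hoxb1, Hoxd1, Hoxd3, Hoxd10, Hoxd11, Hoxd12 and Hoxd13 had not. No member passed in any of the 6 contrasts or in the test for any difference by edgeR's quasi-likelihood test with Benjamini-Hochberg adjustment over all genes at 0.05. All 3 contrasts against p53 het share its 4 tumours, so their values are given side by side and are not independent. Folds below are log2 values with their standard error, positive where the group named first is higher.

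In R172H against p53 het 0 of 32 members passed, where 0.0776% of all genes did, and 3 had an unadjusted p under 0.05, where 12.3% of all genes did. The median log2 fold of the members was 0.17, against -0.02 for all genes, and -0.13 without p53 het 3 and R270H 3, so its sign rested on these tumours. No member separated the groups without overlap, where 2.15% of all genes did. Hoxb13 was at least 40.7-fold lower in R172H, at the floor of 3 counts over the group, than in p53 het, with an adjusted p of 0.331 by edgeR, and without p53 het 1 both groups were at 0. DESeq2 called 1 member, Hoxb13, and 1.44% of all genes, and limma voom called 0 members and 0% of all genes.

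In R245W against p53 het 0 members passed and 0.0728% of all genes did, with 3 members and 12.5% of all genes at an unadjusted p under 0.05. The median fold was 0.58, against -0.04 for all genes, and 0.26 without p53 het 3 and R270H 3. With all tumours 26 of 32 members had a fold above 0. Neither the share of all genes above 0 nor the count without p53 het 3 and R270H 3 was computed. The p53 het group includes p53 het 3, which had the lowest Hox sum of the tumours, at 46.2 CPM. Hoxa3 averaged 10.5 ± 4.0 CPM in R245W and 4.13 ± 1.61 CPM in p53 het (SD, n = 3 and 4), a log2 fold of 1.21 ± 0.41 with an adjusted p of 0.256 by edgeR. Hoxa13 averaged 0.0591 ± 0.0277 CPM in R245W and 3.50 ± 4.02 CPM in p53 het, a log2 fold of -5.93 ± 2.37 with an adjusted p of 0.320. Non-overlapping were 2 members, Hoxa3 and Hoxa9, both higher in R245W, where 9.11% of all genes did not overlap. DESeq2 and limma voom called 0 members, and 1.81% and 0.0679% of all genes.

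In R270H against p53 het 0 members and 0% of all genes passed, with 2 members and 11.5% of all genes at an unadjusted p under 0.05. The median fold was 0.01, against -0.01 for all genes, and 0.01 also without p53 het 3 and R270H 3. Hoxa4 averaged 0.896 ± 0.280 CPM in R270H and 1.41 ± 0.879 CPM in p53 het (SD, n = 5 and 4), a log2 fold of -0.82 ± 0.37 with an adjusted p of 0.415 by edgeR, and -0.19 without p53 het 2. No member was free of overlap, where 3.5% of all genes were. DESeq2 and limma voom called 0 members, and 1.57% and 0.00485% of all genes.

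In R245W against R172H 0 members and 0.155% of all genes passed, with 6 members and 10.8% of all genes at an unadjusted p under 0.05. The median fold was 0.53, against -0.00 for all genes, and 0.53 also without the 2 tumours. Hoxa13 averaged 0.0591 ± 0.0277 CPM in R245W and 16.2 ± 17.1 CPM in R172H (SD, n = 3 and 6), a log2 fold of -7.93 ± 2.46 with an adjusted p of 0.254 by edgeR. Hoxb13 was at least 202.2-fold higher in R245W than the floor over the R172H group, and at least 13.5-fold without R245W 2, with an adjusted p of 0.240 by edgeR. Non-overlapping were 3 members, Hoxa9 and Hoxb13 among them, all higher in R245W, where 5.24% of all genes did not overlap. For Hoxb13 this rested on 1 count in R245W 1, under the floor of 3 counts, beside 273 and 12 counts in R245W 2 and 3. DESeq2 called 3 members, Hoxa11, Hoxa13 and Hoxb13, and 1.7% of all genes, and limma voom called 0 members and 0.577% of all genes.

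In R245W against R270H 0 members and 1.24% of all genes passed, with 6 members and 18.4% of all genes at an unadjusted p under 0.05. The median fold was 0.56, against -0.02 for all genes, and 0.38 without the 2 tumours. Hoxa11 averaged 0.0594 ± 0.103 CPM in R245W and 8.93 ± 6.65 CPM in R270H (SD, n = 3 and 5), a log2 fold of -7.15 ± 2.36 with an adjusted p of 0.128 by edgeR. R245W held 4 counts of it in all, every one in R245W 1, and the fitted fold was -10.77 without that tumour, so its size is no measure of the difference. It is the 1 member that lay below the other group in all its tumours. A total of 6 members did not overlap, Hoxa3, Hoxa4, Hoxa5 and Hoxc4 among those above R270H, where 12.9% of all genes did not overlap. Hoxa11 was called by DESeq2, with an adjusted p of 0.00660, and by edgeR with only these 2 groups in the fit, at 0.0324, where 5.84% and 1.09% of all genes were called; limma voom called 0 members and 5.08% of all genes.

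In R270H against R172H 0 members passed, where 5.28% of all genes did, and 2 members and 23.2% of all genes had an unadjusted p under 0.05. The median fold was 0.13, against -0.02 for all genes, and 0.27 without the 2 tumours. Hoxb7 averaged 5.41 ± 1.35 CPM in R270H and 2.2 ± 2.27 CPM in R172H (SD, n = 5 and 6), a log2 fold of 1.37 ± 0.62 with an adjusted p of 0.191 by edgeR. With 1 tumour left out the fold ran from 1.16, without R172H 6, to 2.06, without R172H 2. Hoxb13 was at least 48.7-fold higher in R270H than the floor over the R172H group, and at least 29.8-fold without R270H 4, with an adjusted p of 0.124 by edgeR. Hoxc9, at 0.149 to 4.21 CPM in R270H and 5.24 to 7.62 CPM in R172H, was the 1 member without overlap, where 6.72% of all genes did not overlap. DESeq2 called 1 member, Hoxb13, and 10.9% of all genes, and limma voom called 2, Hoxb6 and Hoxb7, and 11.1% of all genes.

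In the test for any difference over the 4 genotypes 0 members passed, where 2.86% of all genes did, by edgeR. DESeq2 called 1 member and 12.1% of all genes, and limma voom 0 members and 1.6% of all genes. Hoxa13, Hoxb13, Hoxa3 and Hoxa11 were among the 5 members with an unadjusted p under 0.05 by edgeR. The share of all genes at that mark was not computed for this test, so the count cannot be read as particular to the Hox genes. In every fit that left out 1 tumour 0 members passed in all 7 tests. With p53 het 3 and R270H 3 left out together 0 members passed as well, where 0.0147% (R172H against p53 het), 0.0293% (R245W against p53 het), 0.0587% (R270H against p53 het), 0.166% (R245W against R172H), 0.699% (R245W against R270H), 3.05% (R270H against R172H) and 1.16% (any difference) of all genes did.

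The sample titles are of 2 kinds, with a serial number for R172H, R245W and p53 het 1 and 2, and without for R270H and p53 het 3 and 4; no label says what the kinds mark. With the kind as a covariate, which only the p53 het tumours can estimate, 0 members passed, and 0.0146% (R172H against p53 het), 0.0388% (R245W against p53 het), 0.0194% (R270H against p53 het), 0.199% (R245W against R172H), 0.0388% (R245W against R270H), 0.00485% (R270H against R172H) and 0.0922% (any difference) of all genes did. Against the p53 het tumours of the same kind of title 0 members passed either, where 0.0188% (R172H), 0.0423% (R245W) and 0.0188% (R270H) of all genes did. With the covariate, members at an unadjusted p under 0.05 by edgeR were 11 of 32 in R270H against p53 het and 12 in R270H against R172H. For any difference they were 10. Without the covariate these were 2, 2 and 5. In the other contrasts 2 to 6 members had such a p with the covariate and 3 to 6 without. Against p53 het 3 and 4, R270H had 11 of 34. The share of all genes at that mark was not computed for these fits, so the counts cannot be read as particular to the Hox genes. The fits also rest on p53 het 3 and 4, which had the lowest shares of paralogue number 9 to 13, at 0.855% and 15.8%. The log2 fold of Hoxa4 was -0.21 in R270H against p53 het 3 and 4. Hoxa3 in R245W had 0.80 against p53 het 1 and 2, and Hoxb7 in R270H against R172H had 1.77 with the covariate.

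The clusters also hold noncoding genes, of which 16 of 17 listed were in the table. Hottip, an RNA read outwards from the posterior end of HoxA, was read in 3 tumours, R172H 1, 3 and 4, at 5.84, 1.55 and 3.07 CPM, which are the 3 with the highest Hoxa13. Hotair, an RNA transcribed between Hoxc11 and Hoxc12, was at most 1.87 CPM, in R245W 2, and was read also in R270H 2 and R270H 4. Hoxa11os, antisense to Hoxa11, was read in R172H 1, R172H 4 and R270H 4, where Hoxa11 was at 10.8, 13.9 and 18 CPM, and was not read in 7 tumours that read Hoxa11, among them R270H 3 with 12.7 CPM of it. Hotairm1, at the anterior end of HoxA, was read in all tumours at 1.40 to 3.90 CPM. Whether counts were split by strand is not given in the sources used here, so a gene and its antisense partner may share reads. None of the 10 in the fit passed in any contrast.

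The 5 miR-10 and miR-196 genes of the clusters, picked by name, carry 2 seeds. Their mature 5p strands are shown because these short RNAs of the Hox clusters are known to target Hox messages. Sequences are from RefSeq on GRCm38.p6, with the seed, bases 2 to 8, in capitals.
mmu-miR-10a-5p: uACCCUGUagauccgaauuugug
mmu-miR-10b-5p: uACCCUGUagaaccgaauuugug
mmu-miR-196a-5p: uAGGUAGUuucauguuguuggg
mmu-miR-196b-5p: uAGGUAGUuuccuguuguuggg
Both miR-10 strands share the seed ACCCUGU and both miR-196 strands the seed AGGUAGU; miR-196a-5p comes from 2 genes with the same mature strand. Their host loci sit in HoxB (Mir10a and Mir196a-1, chromosome 11), HoxD (Mir10b, chromosome 2), HoxC (Mir196a-2, chromosome 15) and HoxA (Mir196b, chromosome 6). In the count table these loci were at 0 to 0.948 CPM. Mir196a-1, at chr11:96265187-96265208 for its mature strand, was highest at 0.948 CPM in R270H 4, 0.592 CPM in R245W 2 and 0.513 CPM in p53 het 1, which are among the 4 tumours that read Hoxb13. Counts at a hairpin gene cannot be told apart from those of longer transcripts across it and do not measure the mature RNA.

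The TALE cofactors bind DNA together with Hox proteins, and 0 of 9 passed in any contrast. Meis1 was at 9.60 to 28.6 CPM and Meis2 at 1.79 to 31.5 CPM over the tumours. Of the limb genes, 9 of 15 were in the fit and 0 passed. Tbx5, the forelimb factor, was at 0.279 CPM or less in every tumour. Tbx4, a hindlimb factor, reached 7.53 CPM in p53 het 1, and Pitx1, which sets hindlimb identity, was read in R172H 2 at 11 CPM, R270H 4 at 1.81 CPM and p53 het 2 at 7.77 CPM. Tbx4 and Pitx1 were thus not highest in the same tumours. Of 17 upstream regulators of the clusters, 14 were in the fit and 1 passed: Suz12, a subunit of the Polycomb complex that silences Hox genes, was at 58.3 to 78.9 CPM in R270H and 26.3 to 53.3 CPM in R172H, a log2 fold of 0.70 ± 0.16 with an adjusted p of 0.0216 by edgeR, in a contrast where 5.28% of all genes passed. With the kind of title as a covariate its fold was 0.39 with an adjusted p of 0.729, so the call was lost.

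Of the 9 genes of the Hox-negative facial skeleton, 7 were in the fit and 0 passed; they summed to 331.6 to 786 CPM in R172H, 387 to 659 CPM in R245W, 256 to 499 CPM in R270H and 255 to 529 CPM in p53 het.

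Markers of other cell types varied between tumours, and their part in the Hox levels was not tested. The 5 epidermis markers summed to 284 CPM in R270H 4 and 45.8 CPM in R270H 3, and 11 CPM or less in the other tumours. R270H 4 is the tumour that read Hoxd13. The keratin gene Krt14 was higher in R270H than in R172H, with a log2 fold of 7.32 ± 1.81 and an adjusted p of 0.0282 by edgeR, and the macrophage gene Cd68 was lower, with -1.45 ± 0.40 and 0.0444. Both calls were lost with the kind of title as a covariate, where the folds were 1.82 and -0.90 and the adjusted p by edgeR 0.921 and 0.751. Of the 4 macrophage markers, 2 had a fold above 0 and 2 below in R270H against R172H, with a median log2 fold of -0.09. Cd68 therefore does not stand for the list. The 7 skeletal muscle markers summed to 6.09 to 708 CPM in R172H, 21.3 to 390 CPM in R245W, 104 to 754 CPM in R270H and 7.22 to 1940 CPM in p53 het, highest in p53 het 4, the tumour with the highest Hoxc8 and Hoxd8. The 6 blood progenitor markers summed to 233 CPM in R270H 5, which also had the highest Hoxa9, at 39.6 CPM, and the granule gene Mpo there was at 66.6 CPM. In p53 het 3 Mpo was at 29 CPM while Hoxa9 was at 0.0439 CPM. In line 14 Mpo was at 0.218 CPM with siRNA and 0.203 CPM in the control while Hoxa9 was at 42.8 CPM with siRNA and 40.7 CPM in the control. Mpo is 1 of the 6 markers, and the whole list read otherwise. It summed to 99.5 CPM in p53 het 3, near the tumour median of 100 CPM. In line 14 it summed to 161 CPM with siRNA and 148 CPM in the control, above all tumours but R270H 5. Of the remaining lists, the fibroblast markers summed to 353 to 2403 CPM, the chondrocyte markers to 44.5 to 1547 CPM, the macrophage markers to 640 to 1891 CPM and the Schwann cell markers to 7.43 to 33.9 CPM over the tumours.

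In line 14 the p53 siRNA library gives no replicate check, so no test was made. Trp53 was at 30.6 CPM with siRNA and 94.9 CPM in the control, with exact Poisson intervals of 29.3 to 31.9 and 92.5 to 97.3 CPM that cover counting error only. Of 27 members at 1 CPM or more in at least 1 of the libraries 0 lay 2-fold or more apart on the log2(CPM + 1) scale, where 0.125% of 13556 genes did. The member ratios ran from -0.54 for Hoxa2, at 0.913 CPM with siRNA and 1.78 CPM in the control, to 0.50 for Hoxa4, at 1.61 CPM with siRNA and 0.843 CPM in the control. This scale understates the change of low genes.

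In line 14 the members of paralogue number 9 to 13 made up 60.3% of the Hox sum in each library, under the 67.2% of R172H 1. HoxA and HoxC had the largest sums of the clusters, but only HoxD lay above all tumours in both libraries. HoxD summed to 27.84 CPM with siRNA and 25.03 CPM in the control, against 14.04 CPM or less in the tumours. In the line it also exceeded HoxB, at 16.13 CPM with siRNA and 14.47 CPM in the control. Hoxa9 was at 42.8 CPM with siRNA and 40.7 CPM in the control, and Hoxa10 at 46.7 CPM with siRNA and 40.1 CPM in the control. Hoxc10 was at 22.8 CPM with siRNA and 23.7 CPM in the control, and Hoxc11 at 13.4 CPM with siRNA and 13.2 CPM in the control. Hoxd8 was at 17.7 CPM with siRNA and 14.5 CPM in the control, while Hoxa7 was at 17.5 CPM with siRNA and 15.4 CPM in the control, Hoxc5 at 10 CPM with siRNA and 10.4 CPM in the control, and Hoxc6 at 12.0 CPM with siRNA and 11.8 CPM in the control. In both line libraries Hoxa9, Hoxa10, Hoxc10, Hoxc11, Hoxd8 and Hoxd9 lay above all 18 tumours and Hoxb5 and Hoxb8 below all, and Hoxa11 and Hoxa13 were under 1 CPM, as in 7 tumours: R172H 2 and 6, R245W 1 to 3 and p53 het 3 and 4. Line and tumour also differ in the other cells of a tumour, such as macrophages, whose markers summed to 31.7 CPM with siRNA and 32.8 CPM in the control.

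**Figure D5:**
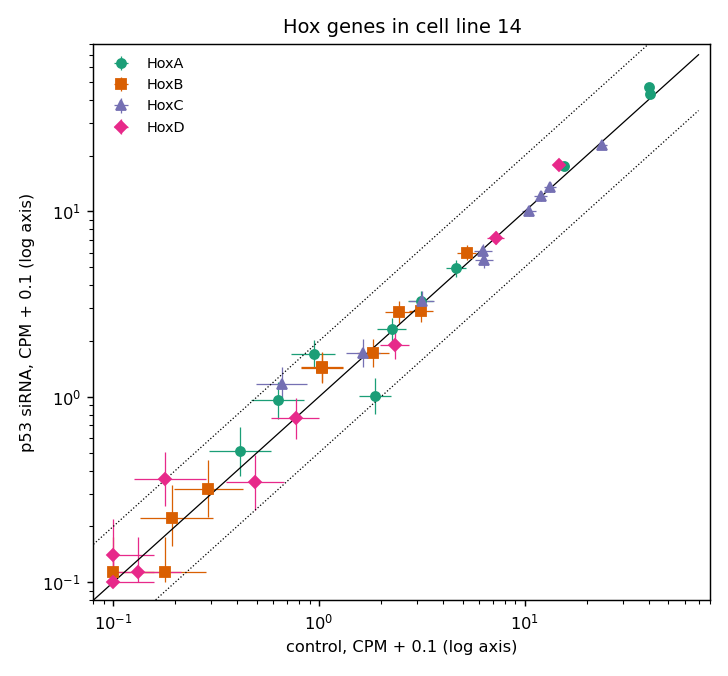
CPM plus 0.1 of Hox genes in line 14 with p53 siRNA (vertical) and in its control (horizontal), on log axes, with exact Poisson 95% intervals as bars, equality as a solid line and 2-fold as dotted lines. The genes plotted above 1 CPM lie between the dotted lines, with Hoxa2 lowest and Hoxa4 highest relative to equality.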

How the data were processed

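RNA sequencing of total RNA gave 1 count column per library for 18 tumours and 2 libraries of line 14. The deposited counts are raw whole numbers per gene, made by the authors from reads aligned to GRCm38 with STAR 2.6.0b, per the submitters' processing notes, which also name DESeq2. The counting program, annotation and strand setting are not given in the sources used here. Of 49585 gene IDs 49326 matched a symbol, and no column of another sample was present.

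From these counts CPM, CPM per kilobase of GENCODE M21 exon and last genes read were computed with pandas 2.3.3. The tumours were tested with edgeR 4.0.16 in R 4.3.3: filterByExpr by genotype (minimum count 10, minimum total count 15) left 20616 genes, TMM scaling, 1 quasi-likelihood fit with 14 residual degrees of freedom, Benjamini-Hochberg adjustment over all genes and a threshold of 0.05. Each standard error is the log2 fold divided by the square root of its F. Alternatives were DESeq2 1.42.0, its size factors, limma 3.58.1 voom with quality weights, no filter, only the groups compared, the kind of title as a covariate, subsets of p53 het and each tumour left out. Leaving out p53 het 3 and R270H 3 together was chosen after seeing the data. The scripts were tested on simulated data.

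Groups follow the titles, and nothing states that tumours of a group came from separate mice, so p-values measure the spread between these samples. No pair of libraries within a group held identical values. The members, gene lists and settings were chosen with earlier results of these data known. Named genes are those with the 2 lowest p per contrast, the highest mean and last member read per cluster, and those at 10 CPM in line 14; others were added to describe the clusters. Values of some genes these rules name are not reported here, and the plots leave them out.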

Additional observations from a re-analysis of the deposited data

Results flagged for a closer look

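Dixon's 95% limit was applied to 96 groups of 4 to 6 tumours, over the 32 genes in the fit. In 11 of them 1 tumour stood farther from the others than the limit allows. Chance gives about 1 in 20 groups only where groups are independent and values are not tied. Here genes share tumours and clusters, and for Hoxb13 and Hoxc12 in p53 het 1 the other tumours were tied with no count. The number flagged is therefore not set against chance. Values are log2 CPM, with CPM beside them. No explanation was tested.

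R270H 3 was low in 4 HoxC genes: Hoxc6 was 0.19 (0.934 CPM, against 4.52 to 8.57 CPM in the other R270H tumours), Hoxc9 was -1.99 (0.149 CPM, against 3.36 to 4.21 CPM), and Hoxc10 and Hoxc11 were -3.58 with no count, against 2.28 to 7.07 CPM and 2.46 to 7.41 CPM. In p53 het 3 Hoxc6 was -1.13 (0.351 CPM, against 8.16 to 10.7 CPM in the other p53 het tumours).

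In p53 het 1 Hoxb13 was 1.93 (3.47 CPM) and Hoxc12 was 1.74 (3.04 CPM), while the other 3 p53 het tumours had no count of either gene. In p53 het 2 Hoxa4 was 1.71 (2.72 CPM, against 0.907 to 1.1 CPM).

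In R172H 1 Hoxb3 was 0.30 (1.15 CPM, against 3.67 to 7.05 CPM in the other R172H tumours) and Hoxb4 was 1.44 (2.64 CPM, against 8.18 to 11.3 CPM). In R172H 5 Hoxa4 was 1.104 (2.23 CPM, against 1.05 to 1.44 CPM).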

How the results depend on the processing

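Of the alternatives to the counts of members called and the other summary values, 177 gave the same result and 7 did not; of those to single named genes, 294 gave the same direction and side of the threshold, 7 passed it and 0 reversed. DESeq2 called 1 member in R172H against p53 het (Hoxb13), 3 in R245W against R172H (Hoxa11, Hoxa13 and Hoxb13), 1 in R245W against R270H (Hoxa11), 1 in R270H against R172H (Hoxb13) and 1 for any difference, where edgeR called 0. Its Hoxb13 folds are set against a group with no count and are no bound. Limma voom with quality weights called 2 in R270H against R172H, and edgeR on the groups compared alone called 1 in R245W against R270H; the cause was not tested. Leaving out each tumour in turn gave 0 called members in all 18 fits of each test, with 1 to 9 members at an unadjusted p under 0.05. The share of all genes at that mark was not computed for those fits, so the counts cannot be read as particular to the Hox genes. Without p53 het 1 no Hoxb13 fold of R172H against p53 het can be given, since both groups are at 0. No paired analysis was possible because the titles number no replicates, and the numbers used here, given by accession, pair no tumours. Low counts limit the posterior genes of all 4 clusters, Hoxa11 and Hoxa13 in R245W (4, 0 and 0, and 1, 2 and 1 counts) among them, where a difference may not be detectable at this depth.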
